A study of Caenorhabditis elegans with 6 samples.

Results

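The UDP-glucuronosyltransferase genes of Caenorhabditis elegans carry the symbol ugt- followed by a number. All genes of the deposited table whose identifier maps to such a symbol were taken, which gave 67 of 46778 genes. Of these 67, 42 reached 1 TPM in at least 3 of 6 libraries and were tested, and 25 lay below. TPM is a transcript abundance scaled for transcript length and to a fixed library total.

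UDP-glucuronosyltransferases are membrane enzymes of the endoplasmic reticulum that move a sugar from a UDP-sugar donor onto small fat-soluble molecules. In mammals the donor is mainly UDP-glucuronic acid, and the conjugates of drugs, plant compounds, bilirubin and steroids become soluble enough to be exported. The reaction is a conjugation step of detoxification, after oxidation by cytochromes P450 and before efflux. In nematodes the family is large, many of its genes are expressed in the intestine, and conjugation with glucose rather than glucuronic acid is common.

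The study sequenced total RNA of C. elegans in 3 libraries titled HLB01 and 3 libraries titled Control. HLB01 is a code name; the title of the series speaks of Vicatia thibetica root extract. The agent field of the 3 treated libraries reads HLB01, HLB02 and HLB03, whereas their titles give HLB01 for each, and the titles were followed here. If the field were right, these libraries would not be replicates of the same treatment. The SDs and p-values given here would then not describe such replicates, and the labels cannot settle this. The labels used here name no strain, age, dose, exposure time or tissue. They also do not say that replicates came from separate cultures, and the p-values therefore reflect just the variation among these 6 libraries, which may be technical.

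Columns summed to between 996559 and 997388 TPM, and 17921 to 18263 genes were above 0 in a library. TPM keeps no read depth, so the depth behind each value is unknown. The lowest value above 0 of any ugt gene in any library was 0.03 TPM. HLB01 replicate 3 stood apart on the first principal component of the tested genes (31.3% of the variance), at 32.0 against -15.3 to -0.575 for the other 5 libraries. It also held the most ribosomal RNA, 4890 TPM, beside 2120 and 2470 TPM in the other HLB01 libraries and 530 to 2680 TPM in Control. The labels describe bulk RNA of C. elegans, which cannot tell fewer cells of a type from less RNA per cell.

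Of the tested ugt genes, only ugt-3 was called higher in HLB01 animals, 2.42-fold in mean TPM, and none was called lower. The other 41 tested genes did not pass the test. The next in order of p were ugt-25 (1.42-fold), ugt-13 (1.85-fold) and ugt-62, which had the smallest p among genes with lower values in HLB01 (1.25-fold lower). The test was limma with a mean-variance trend on log2(TPM + 1), two-sided, over all 12590 tested genes, with Benjamini-Hochberg adjustment and a threshold of 0.05. It called 1 of 42 ugt genes (2.38%), while over all tested genes 50 were called (0.397%), 0.167% higher and 0.23% lower. At an unadjusted p below 0.05, 7 ugt genes were higher (16.7%; all genes 3.8%) and 1 was lower (2.38%; all genes 4.52%). The 7 include ugt-6, which passed the filter through its HLB01 libraries alone and therefore had to differ.

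The gene ugt-3 (WBGene00013903) lies on chromosome V, from 12798308 to 12800271 on the reverse strand of WBcel235, and has 1 annotated protein-coding transcript of 1687 bp. Its level was 16.78, 18.35 and 18.28 TPM in HLB01 replicates 1, 2 and 3, against 7.58, 7.36 and 7.16 TPM in Control replicates 1, 2 and 3. Every HLB01 library was far above every Control library, and the spread within each group was narrow. Means were 17.8 ± 0.887 TPM in HLB01 and 7.37 ± 0.210 TPM in Control (SD, n = 3 each). On the log2 scale the difference was 1.17 ± 0.07 (SE; 95% interval 0.99 to 1.34; limma adjusted p = 0.00258). By mean over all libraries it ranked 12 of the 67 genes. In Control animals it lay beside ugt-16 (7.29 TPM) and ugt-24 (7.66 TPM), and in HLB01 animals beside ugt-23 (17.8 TPM) and ugt-64 (17.8 TPM). The call held with each library left out in turn (log2 fold change 1.15 to 1.21, limma adjusted p up to 0.0239). Without HLB01 replicate 3, the library that stood apart, the log2 fold change was 1.15.

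**Figure D1:**
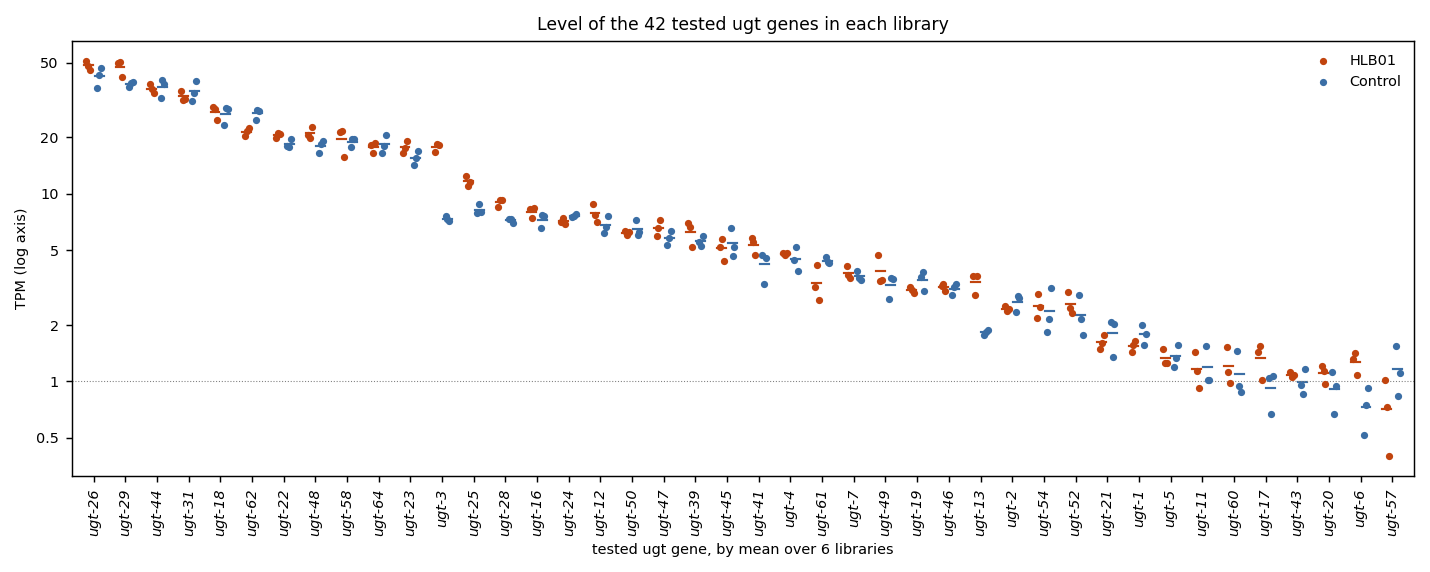
TPM on a log axis for the 42 tested ugt genes, ordered by their mean over 6 libraries, with HLB01 in orange-red to the left of Control in blue; points are libraries, short lines are group means, and the dotted line is 1 TPM. For ugt-3 the HLB01 points (16.78 to 18.35 TPM) stand clear of the Control points (7.16 to 7.58 TPM), while most other genes overlap.

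Of 67 ugt genes, 42 lie on chromosome V, and 31 form 10 runs of 2 to 7 neighbours with no other protein-coding gene between them. ugt-3 ends a run of 4 on the reverse strand of chromosome V (12790676 to 12800271), in which ugt-5, ugt-4, ugt-6 and ugt-3 are 48 to 144 bp apart. Next to ugt-3, ugt-6 (WBGene00013904) had 1.31, 1.41 and 1.08 TPM in HLB01 and 0.52, 0.75 and 0.92 TPM in Control. The groups of ugt-6 did not overlap, at a log2 fold change of 0.39 ± 0.14 (limma adjusted p = 0.527). It was the only tested ugt gene that passed the filter through one group alone, its HLB01 libraries, and a gene that passes in this way has to differ.

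Further along, ugt-4 had 4.84, 4.74 and 4.82 TPM in HLB01 and 4.45, 5.23 and 3.87 TPM in Control. For ugt-5 the values were 1.49, 1.26 and 1.25 TPM in HLB01 and 1.2, 1.33 and 1.57 TPM in Control. Both genes overlapped between groups, and their intervals were -0.19 to 0.35 and -0.32 to 0.28 on the log2 scale. The TPM ratio of ugt-3 to ugt-4 was 3.47 to 3.87 in HLB01 and 1.41 to 1.85 in Control, and that of ugt-3 to ugt-5 was 11.3 to 14.6 in HLB01 and 4.56 to 6.32 in Control. The ratio to ugt-6 overlapped, at 12.8 to 16.9 in HLB01 and 7.78 to 14.6 in Control. These ratios were chosen after the values were seen and were not tested. How alike the transcripts of neighbouring ugt genes are was not examined here, and reads shared between copies were divided by the authors' counting.

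A run on chromosome I (4721131 to 4735276, forward strand) holds ugt-26, ugt-27, ugt-28 and ugt-25. Its last gene, ugt-25 (WBGene00015692, 4731606 to 4735276), had 12.46, 10.95 and 11.64 TPM in HLB01 and 7.87, 8.81 and 8.01 TPM in Control. Every HLB01 library lay above every Control library, yet the difference did not pass over all genes (log2 fold change 0.46 ± 0.09, 95% interval 0.26 to 0.66, limma adjusted p = 0.113). It overlaps mlst-8 on the other strand by 26 bp, and mlst-8 was at 43.6 TPM in HLB01 and 43.0 TPM in Control. In the middle of the run, ugt-28 had 8.48, 9.29 and 9.28 TPM in HLB01 and 7.37, 7.38 and 6.98 TPM in Control, again without overlap (log2 fold change 0.28 ± 0.08, limma adjusted p = 0.35).

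The first gene of that run, ugt-26, had the highest mean of the family, with 51.40, 48.27 and 46.03 TPM in HLB01 and 36.82, 43.07 and 47.14 TPM in Control. Its groups overlapped through HLB01 replicate 3 and Control replicate 3 (log2 fold change 0.20 ± 0.09, limma adjusted p = 0.644). The second gene, ugt-27, was at 0.39 TPM or less in all libraries and was not tested. Levels within these 14.1 kb ranged from 0.273 TPM for ugt-27 to 45.5 TPM for ugt-26 (means of 6 libraries). The 3 tested genes all had positive log2 fold changes, as had 64.3% of tested ugt genes and 48.7% of all tested genes.

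Another run, on chromosome V (4892588 to 4911399, 18.8 kb), holds ugt-11, ugt-9, ugt-10, ugt-67, ugt-8, ugt-14 and ugt-13, of which the first and the last were tested. The gene ugt-13 (WBGene00019232, 4908884 to 4911399), a known target of the stress-responsive factor SKN-1, had 3.64, 2.88 and 3.66 TPM in HLB01. Its Control libraries had 1.76, 1.84 and 1.89 TPM, so the groups did not overlap. The difference did not pass over all genes (log2 fold change 0.63 ± 0.12, 95% interval 0.35 to 0.91, limma adjusted p = 0.12). At the other end, ugt-11 had 1.44, 1.14 and 0.92 TPM in HLB01 and 1.54, 1.02 and 1.02 TPM in Control, with overlap.

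Near ugt-13 in the run, ugt-8 had 0.97, 0.98 and 0.82 TPM in HLB01 and 0.41, 0.23 and 0.17 TPM in Control. It is named here after its values were seen. Its groups did not overlap and its means differed 3.42-fold, the highest ratio toward HLB01 among the 66 ugt genes above 0. No library reached 1 TPM, so it was not in the test, and with no filter on low values it did not pass (log2 fold change 0.60 ± 0.10, limma adjusted p = 0.158). Between it and ugt-13, ugt-14 overlapped, at 0.67, 0.44 and 0.52 TPM in HLB01 and 0.38, 0.39 and 0.48 TPM in Control. Levels of ugt-9 were 0.13 to 0.5 TPM and those of ugt-10 were 0.06 to 0.11 TPM, and ugt-67 was listed at 0 in all 6 libraries.

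**Figure D2:**
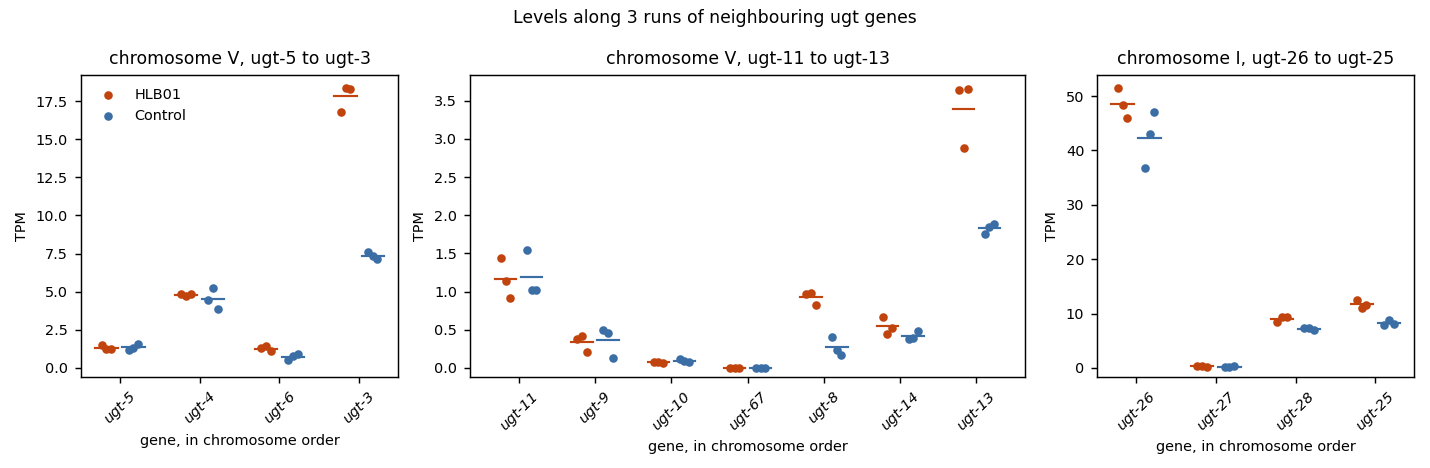
TPM of each library along 3 runs of neighbouring ugt genes in chromosome order, HLB01 in orange-red to the left of Control in blue, with lines at group means. In the left panel the groups part at ugt-3 while ugt-4 and ugt-5 overlap; in the middle panel ugt-8 and ugt-13 are higher in HLB01 without overlap; in the right panel ugt-28 and ugt-25 are higher without overlap beside a high, overlapping ugt-26.

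The other runs with tested genes held smaller differences. Beside the ugt-3 run on chromosome V, ugt-18 had 28.99, 28.39 and 24.90 TPM in HLB01 and 23.25, 28.55 and 28.43 TPM in Control, and its neighbour ugt-16 averaged 8.04 ± 0.556 TPM in HLB01 and 7.29 ± 0.615 TPM in Control (SD, n = 3 each). Both overlapped, and the last gene of their run, ugt-15, was at 0.14 TPM or less. In the pair ugt-1 and ugt-2, ugt-1 had 1.43, 1.56 and 1.64 TPM in HLB01 and 2.01, 1.57 and 1.80 TPM in Control (log2 fold change -0.13 ± 0.12, limma adjusted p = 0.836). Of the pair ugt-19 and ugt-20 on chromosome IV, ugt-19 had 3.20, 3.07 and 2.97 TPM in HLB01 and 3.61, 3.84 and 3.02 TPM in Control (log2 fold change -0.13 ± 0.11, limma adjusted p = 0.822). Its neighbour ugt-20 went the other way, with means of 1.11 TPM in HLB01 and 0.917 TPM in Control (log2 fold change 0.14 ± 0.14, limma adjusted p = 0.85). The groups overlapped in ugt-1, ugt-19 and ugt-20. In the pair ugt-43 and ugt-44, the levels differed between the neighbours far more than between the groups, with ugt-43 at 1.09 TPM in HLB01 and 0.997 TPM in Control and ugt-44 at 36.4 TPM in HLB01 and 37.1 TPM in Control (means, n = 3 each).

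Among genes outside the runs, ugt-29 (WBGene00021709) on chromosome V, from 696524 to 699589, was the second highest of the family. It had 49.86, 50.62 and 42.09 TPM in HLB01 and 37.04, 39.06 and 39.36 TPM in Control. The groups did not overlap, and HLB01 replicate 3 was the nearest to Control (log2 fold change 0.29 ± 0.08, limma adjusted p = 0.295). Without HLB01 replicate 3 its log2 fold change was 0.38. Also without overlap, ugt-48 averaged 21.02 ± 1.48 TPM in HLB01 and 18.0 ± 1.35 TPM in Control, and ugt-22 averaged 20.6 ± 0.730 TPM in HLB01 and 18.5 ± 0.971 TPM in Control (SD, n = 3 each; limma adjusted p = 0.562 and 0.612). Both overlap a gene on the other strand, cft-1 for ugt-48 (0.417 TPM in HLB01, 0.450 TPM in Control) and srz-29 for ugt-22 (listed at 0). The strand setting of the counting is not stated, so reads of such overlaps cannot be told apart.

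In the lower direction, ugt-62 (WBGene00010904) on chromosome III, from 4537281 to 4540623, had 20.30, 21.71 and 22.33 TPM in HLB01 and 24.69, 28.10 and 27.83 TPM in Control. All HLB01 libraries were below all Control libraries (log2 fold change -0.31 ± 0.07, 95% interval -0.48 to -0.14, limma adjusted p = 0.215). The gene ugt-61 had 3.18, 4.16 and 2.71 TPM in HLB01 and 4.59, 4.36 and 4.28 TPM in Control. It too did not overlap, although HLB01 replicate 2 came close to Control (log2 fold change -0.33 ± 0.14, limma adjusted p = 0.606). For ugt-24, at 7.08, 7.46 and 6.94 TPM in HLB01 and 7.53, 7.61 and 7.85 TPM in Control, the groups were apart by a smaller margin (log2 fold change -0.09 ± 0.08, limma adjusted p = 0.836). The lowest log2 fold change belonged to ugt-57 on the X chromosome, at 1.02, 0.73 and 0.40 TPM in HLB01 and 1.55, 0.84 and 1.11 TPM in Control, which overlapped (-0.34 ± 0.19, limma adjusted p = 0.719).

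Of 42 tested ugt genes, 8 lay higher in HLB01 without overlap of the groups (19%; all tested genes 6.85%) and 3 lay lower (7.14%; all tested genes 6.99%). The 8 were ugt-3, ugt-25, ugt-13, ugt-29, ugt-28, ugt-6, ugt-48 and ugt-22, and the 3 were ugt-62, ugt-61 and ugt-24. Among the 8, ugt-6 passed the filter through its HLB01 libraries alone, so its lack of overlap was fixed by the filter. A log2 fold change above 0 was found for 27 of 42 (64.3%; all tested genes 48.7%), and below 0 for 15. The median log2 fold change was 0.08 with quartiles of -0.05 and 0.19, beside -0.00 with quartiles of -0.09 and 0.07 over all tested genes. Without ugt-3 the median of the other 41 was 0.07. These are descriptions of the members that passed the filter, and the members were not tested as a list.

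**Figure D3:**
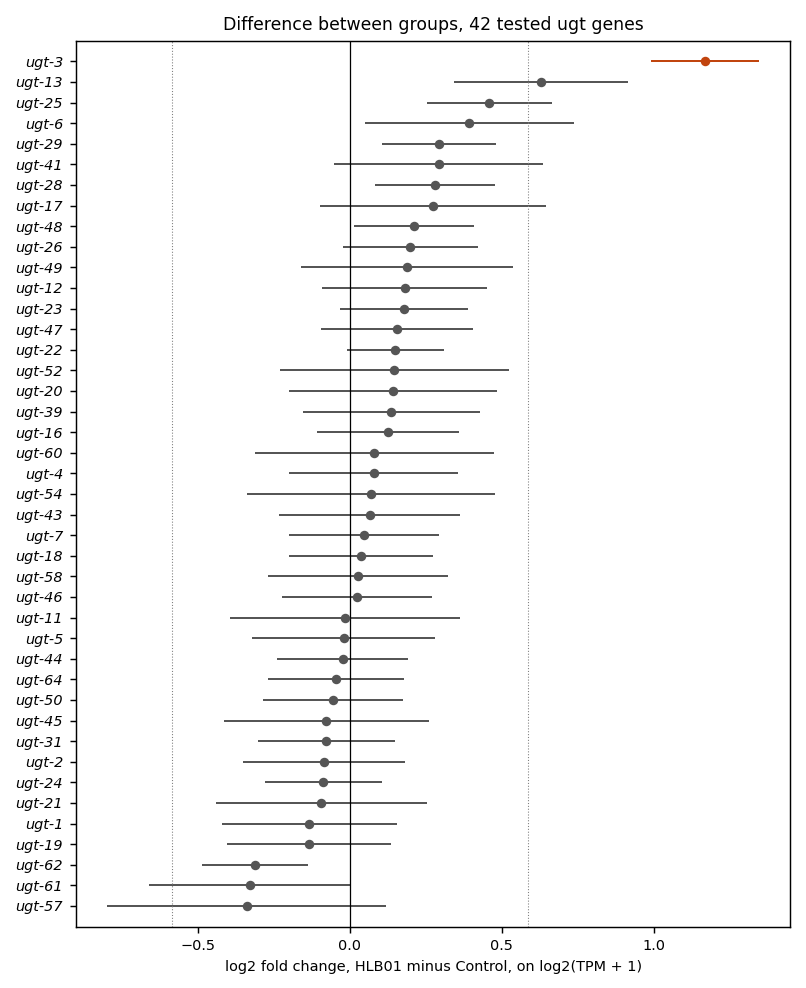
Log2 fold change (HLB01 minus Control, on log2(TPM + 1)) with its 95% interval from limma for the 42 tested ugt genes; orange-red marks an adjusted p below 0.05, and dotted lines mark a 1.5-fold change either way. Only ugt-3, at 1.17, passed over all genes. The intervals of ugt-25, ugt-13, ugt-29, ugt-28, ugt-6 and ugt-48 also lie above 0, and that of ugt-62, at -0.31, lies below 0.

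A gene that missed the threshold was not shown to be alike in both groups. The intervals limit how far it may differ: for 34 of 42 genes the 95% interval lay within a 1.5-fold change in either direction, and for 41 of 42 within a 2-fold change, on the log2(TPM + 1) scale, which understates changes of genes with low TPM. The exception to the second bound was ugt-3. The genes outside the first bound were ugt-3, ugt-25, ugt-13, ugt-6, ugt-41, ugt-17, ugt-61 and ugt-57.

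With each library left out in turn, the log2 fold change of ugt-25 was 0.41 to 0.50, that of ugt-13 was 0.58 to 0.72, and that of ugt-62 was -0.37 to -0.27. None of these 3 passed over all genes in any of these fits (limma adjusted p from 0.156 to 0.563).

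**Figure D4:**
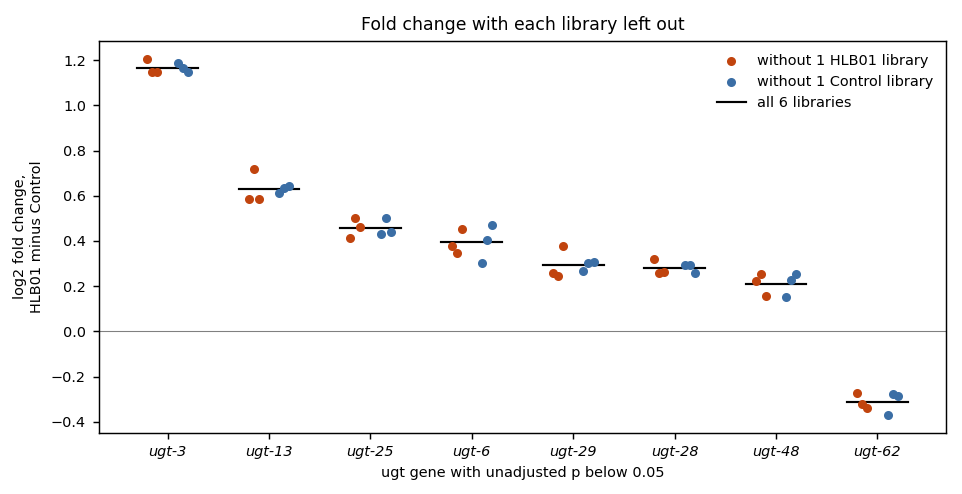
Log2 fold change (HLB01 minus Control) of the 8 ugt genes with an unadjusted p below 0.05, with each library left out in turn; orange-red points leave out 1 HLB01 library, blue points 1 Control library, and black lines are the fit of all 6. Values of ugt-3 lie between 1.15 and 1.21; the groups of all 8 genes do not overlap, so leaving out 1 library could not turn a sign.

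Summed over all 67 genes, ugt transcripts made up 470.42, 460.23 and 438.45 TPM in HLB01 and 393.21, 423.46 and 441.19 TPM in Control. The groups overlapped through HLB01 replicate 3 and Control replicate 3. Means were 456 ± 16.3 TPM in HLB01 and 419 ± 24.3 TPM in Control (SD, n = 3 each), 1.09-fold higher, and 1.06-fold without ugt-3. The 6 highest genes, ugt-26, ugt-29, ugt-44, ugt-31, ugt-18 and ugt-62, held 48.1% of the sum. Of these 6, ugt-44 had 38.76, 36.02 and 34.46 TPM in HLB01 and 32.52, 40.52 and 38.31 TPM in Control, and ugt-31 had 35.52, 31.82 and 32.24 TPM in HLB01 and 31.2, 34.63 and 39.75 TPM in Control. Both overlapped (log2 fold changes -0.02 ± 0.09 and -0.08 ± 0.09, limma adjusted p = 0.968 and 0.875).

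The tested genes spanned means of 0.942 TPM for ugt-57 to 45.5 TPM for ugt-26, with a median of 5.04 TPM. Means were at or above 10 TPM for 12 genes, from 5 to 10 TPM for 9 and below 5 TPM for 21. In order of level, ugt-26 and ugt-29 overlapped each other in both groups, as did ugt-44 and ugt-31. The longest annotated transcript of a ugt gene was 1542 to 2901 bp, with a median of 1700 bp.

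The 25 genes below the filter together made up 8.63, 9.45 and 7.12 TPM in HLB01 and 7.25, 6.74 and 7.30 TPM in Control. In 23 of them no library reached 1 TPM. The other 2 were ugt-51, at 0.82 to 1.06 TPM over all libraries, and ugt-63. For ugt-63, HLB01 replicate 2 had 2.05 TPM, while the other HLB01 libraries had 1.1 and 0.95 TPM and the Control libraries 0.98, 0.97 and 0.93 TPM. Besides ugt-8, the groups did not overlap for ugt-56, which was lower, at 0.26, 0.30 and 0.29 TPM in HLB01 and 0.34, 0.54 and 0.33 TPM in Control. That made 1 of 25 higher and 1 of 25 lower without overlap, beside 6.85% and 6.99% of all tested genes. The share over all genes below the filter was not taken. In 3 runs no gene was tested: ugt-40, ugt-37 and ugt-38, then ugt-35 and ugt-34, then ugt-55 and ugt-56.

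**Figure D5:**
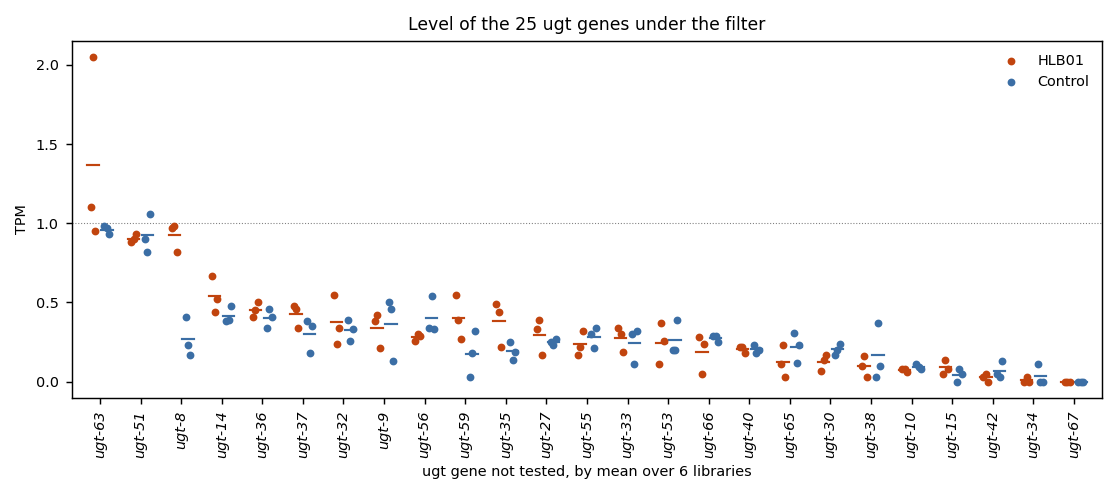
TPM of the 25 ugt genes that did not reach 1 TPM in 3 libraries, ordered by mean over 6 libraries, HLB01 in orange-red to the left of Control in blue, with lines at group means and a dotted line at 1 TPM. The HLB01 points of ugt-8 (0.82 to 0.98 TPM) lie above its Control points (0.17 to 0.41 TPM), and 1 HLB01 library of ugt-63 stands alone at 2.05 TPM.

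The enzymes that make and share the UDP-sugar donors showed no call. Of 29 genes chosen for this, 23 were tested, none passed over all genes in limma, and the median log2 fold change was 0.04. At an unadjusted p below 0.05 in limma, 2 were higher (8.7%, against 3.8% of all tested genes). None was lower at that level, against 4.52% of all tested genes. The UDP-glucose dehydrogenase gene sqv-4, whose product makes UDP-glucuronic acid, had 117.72, 118.01 and 116.45 TPM in HLB01 and 111.51, 116.27 and 115.86 TPM in Control. On the log2 scale sqv-4 differed by 0.04 ± 0.04 (SE; limma adjusted p = 0.855). With the smallest p in the list, glct-6, of a glucuronosyltransferase family that acts on glycans, had 22.42, 21.61 and 23.16 TPM in HLB01 and 17.46, 18.04 and 19.20 TPM in Control (log2 fold change 0.28 ± 0.06, limma adjusted p = 0.204). The UDP-glucuronic acid decarboxylase gene sqv-1 averaged 92.8 TPM in HLB01 and 83.8 TPM in Control (log2 fold change 0.15 ± 0.05, limma adjusted p = 0.426). Among lower values the smallest p was that of gale-1, a UDP-galactose epimerase gene, at 43.3 TPM in HLB01 and 46.3 TPM in Control (limma adjusted p = 0.693).

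Of 13 regulators of the response to foreign compounds, 12 were tested, and none passed over all genes or had an unadjusted p below 0.05 in limma. Their median log2 fold change was -0.06. Over all tested genes, 3.8% were higher and 4.52% lower at that unadjusted level, so few calls would be looked for among 12 genes. Without overlap of the groups 1 of the 12, nhr-176, was higher (8.33%, against 6.85% of all tested genes) and none was lower (6.99% of all tested genes). The smallest p in each direction belonged to the nuclear hormone receptor gene nhr-176, at 1.64 TPM in HLB01 and 1.23 TPM in Control (log2 fold change 0.24 ± 0.12, limma adjusted p = 0.672), and to daf-16, the FOXO transcription factor gene, at 76.0 TPM in HLB01 and 81.2 TPM in Control (-0.09 ± 0.05, limma adjusted p = 0.695). The aryl hydrocarbon receptor gene ahr-1 was below the filter, at 0.673 TPM in HLB01 and 0.513 TPM in Control.

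In other families of detoxification, over the same 12590 genes, 2 of 30 gst- genes, which encode glutathione S-transferases, were called higher, gst-35 (log2 fold change 1.49, limma adjusted p = 0.00505) and gst-21 (1.37, 0.0404). So were 2 of 3 comt- genes of the catechol-O-methyltransferase family, comt-4 (0.78, 0.00224) and comt-5 (0.91, 0.0193). No call was made among 38 cyp- genes, 26 dhs- short-chain dehydrogenase genes, 11 pgp- and 8 mrp- efflux transporter genes. Over all tested genes, 0.167% were called higher. At an unadjusted p below 0.05 in limma, 3.8% of all tested genes were higher and 4.52% lower, and of ugt genes 16.7% and 2.38%. At that level 6 gst- genes (20%) and 3 comt- genes (100%) were higher and none lower. Of cyp- genes 6 were higher (15.8%) and 3 lower (7.89%), and of dhs- genes 5 higher (19.2%) and 1 lower (3.85%). Of pgp- genes 1 was higher (9.09%) and 3 lower (27.3%), and no mrp- gene passed either way. The median log2 fold changes were 0.78 for the 3 comt- genes, 0.08 for gst-, 0.02 for cyp-, 0.01 for dhs-, 0.02 for pgp- and 0.03 for mrp-, beside 0.08 for the ugt genes. Log2 fold changes were above 0 for 66.7% of gst-, 55.3% of cyp-, 53.8% of dhs- and 100% of comt- genes. The same held for 63.6% of pgp-, 62.5% of mrp-, 64.3% of ugt and 48.7% of all tested genes. Higher without overlap were 26.7% of gst-, 21.1% of cyp-, 19.2% of dhs-, 100% of comt- and 36.4% of pgp- genes. Lower were 0%, 13.2%, 7.69%, 0% and 27.3% in that order, and no mrp- gene lay apart. The ugt shares were 19% and 7.14%, those of all tested genes 6.85% and 6.99%.

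Markers of the intestine, where many ugt genes are expressed, summed to 3020 to 3520 TPM over 12 genes in HLB01 and 3620 to 4000 TPM in Control, without overlap and mostly through the protease gene asp-1. Of the 12, none passed over all genes and none was at 0. At an unadjusted p below 0.05 in limma, 1 was higher (8.33%, against 3.8% of all tested genes) and 3 were lower (25%, against 4.52%). Yolk protein genes, made in the adult intestine, summed to 6380 to 8050 TPM in HLB01 and 8830 to 9970 TPM in Control. Of these 6, 1 was called lower (16.7%, against 0.23% of all tested genes). Without overlap of the groups 5 of 6 were lower (83.3%, against 6.99% of all tested genes), and none was higher. Taken gene by gene, the intestinal markers were split: 3 of 12 were higher in HLB01 without overlap (pept-1, nhx-2 and vha-6), 3 of 12 were lower without overlap (act-5, asp-1 and cpr-6), and the other 6 overlapped. Each of these shares was 25%, against 6.85% of all tested genes higher and 6.99% lower without overlap. The part of these markers in the difference of ugt-3 was not tested. Sums for the other cell types overlapped between the groups. That for hypodermis was 230 to 258 TPM in HLB01 and 221 to 238 TPM in Control, and that for the excretory cell was 67.1 to 84.6 TPM in HLB01 and 74.5 to 85.3 TPM in Control. Neuron markers summed to 443 to 472 TPM in HLB01 and 463 to 498 TPM in Control, and pharynx markers to 71.3 to 90.6 TPM in HLB01 and 61.5 to 78.4 TPM in Control. Body wall muscle markers summed to 289.38, 307.12 and 383.87 TPM in HLB01 and 368.05, 345.73 and 370.5 TPM in Control, so that the groups overlapped through HLB01 replicate 3 alone, the library that stood apart. All 6 muscle genes had log2 fold changes below 0 (median -0.20), and none had an unadjusted p below 0.05 in limma. Germline and oocyte markers summed to 2380 to 2590 TPM in HLB01 and 2410 to 2560 TPM in Control, those of sperm to 159 to 260 TPM in HLB01 and 154 to 259 TPM in Control, and those of the early embryo to 1050 to 1110 TPM in HLB01 and 1030 to 1100 TPM in Control. The lowest sperm sum was that of Control replicate 1, where ssp-9 was at 0, against 17.92 to 57.85 TPM in the other libraries. Of 8 tested sperm genes, 12.5% had a log2 fold change above 0 (all tested genes 48.7%). Their median was -0.21, and none had an unadjusted p below 0.05 in limma. No marker of any list was at 0 in all libraries.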

How the data were processed

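The deposited table holds TPM values, made by the authors, in 1 column per library with 2 decimals. No header names the unit; it follows from the column sums of 996559 to 997388 and the RSEM step. The submitters' processing notes list fastp, HISAT, RSEM and the build WBcel235; versions, annotation release and strand setting are not given in the sources used here. Symbols came from a name table (43818 of 46778 identifiers matched; all 67 ugt symbols were in the deposited table) and coordinates from Ensembl release 115 of WBcel235. No genome or protein sequence was used here.

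Genes reaching 1 TPM in 3 or more libraries were tested across all genes in limma 3.58.1 under R 4.3.3, as log2(TPM + 1) with a mean-variance trend, group as the only term, Benjamini-Hochberg adjustment and a threshold of 0.05. The same filter set was kept when a library was left out. The test was checked in 10 simulations with 200 changed genes each. It recovered 34.5% of log2 changes of 0.4, 73.6% of 0.8 and 93.5% of 1.6, and 3.94% of its calls were false. Noise was drawn separately for each gene and library, so a shift shared by the genes of a library was not simulated. A count model was not used because TPM values are not counts. A fold given without log2 divides mean TPM in HLB01 by mean TPM in Control. Runs are neighbouring ugt genes with no other protein-coding gene between their starts.

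Full values were given for genes past the threshold, for the 6 with the smallest p in each direction and for the 6 with the highest mean; others are named by their run, level or overlap. The members, lists and rules were chosen with earlier results of these data known. In the lists, 3 sequence names were found by RefSeq locus tag. Alternatives were pseudocounts of 0.1 and 5 TPM, no filter, a filter of 5 TPM, no trend, median-ratio scaling, a block for the replicate number and leaving out each library.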

Additional observations from a re-analysis of the deposited data

How the results depend on the processing

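Across the 13 alternatives, 1 ugt gene passed in each, and it was ugt-3 (log2 fold change 0.88 to 1.26, limma adjusted p up to 0.0239). The count of all genes called, 50 with the settings of the report, was 67 with a filter of 5 TPM, 22 with no filter and 27 with no trend, and 19 to 32 with 1 library left out. The other 4 alternatives gave 46 to 53. The median log2 fold change of the tested ugt genes, 0.08, was 0.0312 with a pseudocount of 5 TPM and 0.14 with a filter of 5 TPM, where 21 ugt genes were tested; it was 0.05 to 0.10 with 1 library left out. Median-ratio scaling gave 0.08, and the summed TPM ratio was 1.06 to 1.12 with 1 library left out. The cause of these shifts was not tested.

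Among 525 values of single ugt genes under alternatives, 500 kept direction and side of the threshold and 25, of 14 genes that had not passed, changed sign, each with 1 library left out. Their log2 fold changes with 1 library left out ranged from -0.019 to 0.20 for ugt-60, -0.11 to 0.042 for ugt-44, -0.0499 to 0.17 for ugt-58, -0.10 to 0.013 for ugt-50, -0.046 to 0.23 for ugt-54, -0.056 to 0.10 for ugt-18, -0.0067 to 0.17 for ugt-4, -0.0703 to 0.042 for ugt-5, -0.018 to 0.056 for ugt-46, -0.11 to 0.034 for ugt-64, -0.0018 to 0.084 for ugt-7, -0.11 to 0.094 for ugt-11, -0.16 to 0.0398 for ugt-45 and -0.16 to 0.012 for ugt-31.

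The replicate numbers are shared between the groups and were not taken as pairs. The deviations of same-numbered libraries correlated at -0.0132, 0.0377 and 0.127, and 3 of 6 libraries correlated best with their own number. With so few libraries per group, these values cannot show whether same-numbered libraries were handled together. With a replicate block 48 genes were called and ugt-3 kept its call (limma adjusted p = 0.0141). TPM keeps no read depth, so no counting error can be given for genes near 1 TPM.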
